A study of Mus musculus with 12 samples.

Results

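The genes described here encode the potassium, sodium, calcium and HCN channels of the mouse cerebellum together with their auxiliary subunits. They were chosen by name alone, as every row of the deposited expression table whose gene name begins with Kcn, Cacn, or Scn or Hcn followed by a digit, with Kcnj13 left out. The rule used no measured value. It gave 63 of the 7667 named rows: 37 potassium channel genes, 6 sodium channel genes, 18 Cacn genes and 2 HCN genes. The GENCODE M21 annotation holds 137 protein-coding genes with such names, and the 74 that have no row are not analysed here. Every row of the table reaches a value of 10 in at least 1 condition, so weakly detected channels are not among the 63.

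The cerebellum was taken from fxSCA7 92Q mice, a model of spinocerebellar ataxia type 7 in which ataxin-7 carries an expanded glutamine tract, and from their wild-type littermates. Both genotypes were sampled at 12 and at 29 weeks of age. Each of these 4 groups has 3 RNA-seq libraries, 12 in all, and each library is labelled as a pool of 3 mice. Neither the transgene's promoter nor the animals' sex is stated.

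Voltage-gated and calcium-activated potassium channels repolarize neurons after each action potential and set how fast they can fire. Sodium channels carry the upstroke, calcium channels couple firing to calcium entry, and HCN channels carry a depolarizing current at negative potentials. Purkinje cells, the output neurons of the cerebellar cortex, fire spontaneously at high rates and depend on fast Kv3 potassium channels, large-conductance calcium-activated potassium channels and P/Q-type and T-type calcium channels, while granule neurons carry a background potassium conductance.

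The table gives 1 whole-number normalized score per gene and condition, with the 3 libraries of a condition combined before deposit. No spread between libraries can be given, no difference was tested, and "higher" and "lower" describe these values only. Ratios are log2 ratios of 92Q to wild type, or of 29 to 12 weeks, after adding a pseudocount of 1. Rounding to whole numbers leaves such a ratio uncertain by about 0.13 at a value of 10 and 0.06 at a value of 22, the median of each condition over all rows. How the score relates to gene length is not stated, so levels are compared between conditions and not between genes. All 10 Purkinje markers and all 10 granule neuron markers examined have a row, none of 5 blood markers has one, and 2 of 5 markers of other brain regions do. Xist stood at 66 and 63 in wild type at 12 and 29 weeks and at 30 and 25 in 92Q, and the Y-linked Ddx3y at 0 and 5 against 9 and 11, so the sex makeup of the pools and the genotype cannot be told apart. A library of the 29-week 92Q group carries a library number apart from the rest of the 29-week set, and what that number marks is not stated.

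At 29 weeks more channel genes had a lower value in 92Q than in wild type than had a higher one. Lower values were found for 38 of the 63 genes (60.3%), higher values for 17 (27.0%) and equal values for 8, and the median log2 ratio was −0.06. Over all 7666 rows compared, 26.1% lay lower and 49.5% higher, and the median was 0.00. After scaling by median-ratio factors the channel genes split into 47 lower and 16 higher, while all rows split into 52.1% lower and 47.9% higher. By a threshold of 1.2-fold, 8 channel genes (12.7%) were lower, against 3.12% of all rows, and 2 (3.17%) were higher, against 3.78% of all rows. By 1.5-fold, 1 channel gene was lower, against 0.730% of all rows. Among the 8 were Cacna1g, Kcnip1, Kcnma1, Kcng4, Kcnip4, Kcnab1 and Cacna2d2, and the 2 were Kcnk9 and Kcnk2. In bulk tissue, fewer cells of a type and less RNA per cell cannot be told apart. The summed score of the 10 Purkinje markers was 5094 in wild type and 3103 in 92Q at 29 weeks, with all 10 lower, and the part of this in the channel values was not tested.

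At 12 weeks no such lean was present. Lower values in 92Q were found for 22 channel genes (34.9%), higher values for 28 (44.4%) and equal values for 13, with a median log2 ratio of 0.00. Among all 7660 rows compared at that age, 36.7% were lower and 32.1% higher. Median-ratio factors moved the channel split at 12 weeks to 22 lower and 41 higher, while all rows split into 36.7% lower and 63.3% higher. No channel gene was 1.2-fold lower, against 1.54% of all rows, and 1, Cacna1c, was 1.2-fold higher, against 0.496% of all rows. The Purkinje markers were already lower at this age, with sums of 6134 in wild type and 4717 in 92Q.

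**Figure D1:**
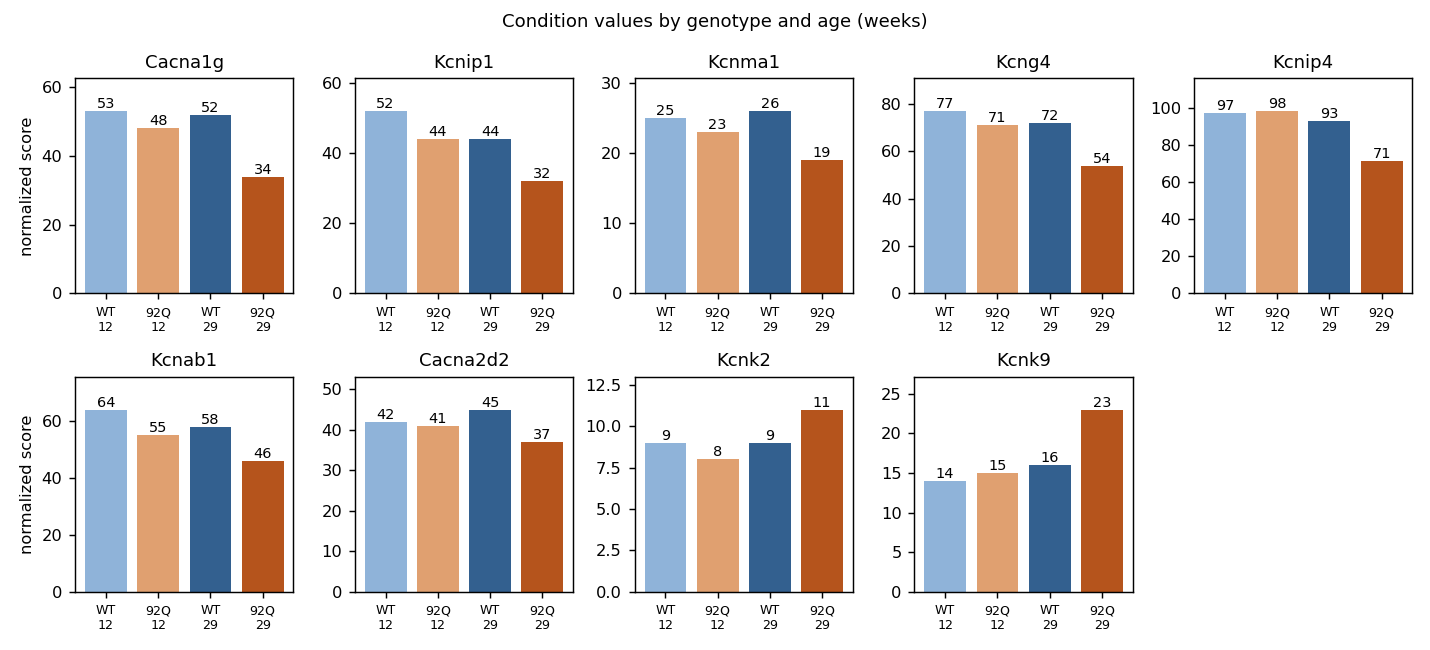
Normalized score (vertical axes, each starting at 0) of 9 channel genes that differed by at least 1.2-fold between genotypes at 29 weeks, in wild type (WT) and 92Q cerebellum at 12 and 29 weeks. Each bar is the single deposited value of a condition, so no error bar can be drawn. In 7 panels the 29-week 92Q bar is the lowest of the 4, and in the panels of Kcnk2 and Kcnk9 it is the highest.

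Among the 13 pore subunits of voltage-gated potassium channels, 10 were lower in 92Q at 29 weeks, 2 were higher and 1 was equal, with a median log2 ratio of −0.10. Kcnc1, the Kv3 subunit that most granule neurons also carry, stood at 210 and 221 at 12 weeks and at 217 and 190 at 29 weeks. Its genotype difference was therefore in opposite directions at the ages, 0.07 and −0.19. Kcnc4, another Kv3 gene, had 32 and 31, then 35 and 30, a 29-week ratio of −0.22.

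Kcng4, an electrically silent subunit that forms channels only with Kv2 partners, had 77 in wild type and 71 in 92Q at 12 weeks, and 72 and 54 at 29 weeks. The 29-week 92Q value was 75.0% of wild type, a log2 ratio of −0.41 that is the lowest of the class. Kcng4 lies on mm10 chr8:119623854-119635680, minus strand. Nothing in the values shows which transcription start is in use, and the sequence before the RefSeq start of Kcng4 is shown with that of Kcnip4, an auxiliary subunit described further on, because these 2 genes share one of the longest runs of letters among the 8 lower genes. The windows are the 250 bases before a RefSeq transcript start (GRCm38.p6), written 5′ to 3′ on the gene's strand, and neither overlaps an annotated exon. Capitals mark the shared run of 12 letters.
Kcng4, chr8:119635681-119635930, minus strand: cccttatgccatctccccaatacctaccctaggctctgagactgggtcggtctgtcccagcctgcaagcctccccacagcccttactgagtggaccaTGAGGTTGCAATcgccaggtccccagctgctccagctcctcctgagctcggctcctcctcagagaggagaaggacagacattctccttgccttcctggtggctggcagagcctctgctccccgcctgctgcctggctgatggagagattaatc
Kcnip4, chr5:49285660-49285909, minus strand: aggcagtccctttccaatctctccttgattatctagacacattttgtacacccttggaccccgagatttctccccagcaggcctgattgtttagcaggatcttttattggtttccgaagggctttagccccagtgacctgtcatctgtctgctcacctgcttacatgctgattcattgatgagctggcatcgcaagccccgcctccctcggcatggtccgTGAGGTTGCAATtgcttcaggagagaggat
The run TGAGGTTGCAAT lies at bases 98 to 109 of the Kcng4 window and at bases 221 to 232 of the Kcnip4 window. Of 32851 RefSeq windows of this length, 3 hold it (0.00913%), and the third belongs to Uckl1os. A further run of 12 letters, GCCAGGTCCCCA, is shared by Kcng4 and Kcnip1. Among 2736 pairs of windows from different channel genes, 117 (4.28%) share a run of 12 or more letters, and the median longest run is 9 letters both there and among the 48 pairs from the lower genes.

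The following Kv pore subunits stayed within 1.2-fold between genotypes at both ages. Kcna1 and Kcna2, the low-threshold channels of axons and of basket cell terminals, had 29-week scores of 82 and 81, and of 74 and 71, in wild type and 92Q. Kcna6 had 26 and 22, a ratio of −0.23. Kcnd2 and Kcnd3 form A-type channels, the former mainly in granule neurons. Kcnd2 had 77 and 85 at 12 weeks and 75 and 76 at 29 weeks, while Kcnd3 had 32 and 31, then 34 and 30. The ether-a-go-go relatives differed in direction, with Kcnh1 at 14 and 13 and Kcnh2 at 16 and 18 at 29 weeks, and the Kcnh2 ratio of 0.16 was the highest of the class. Kcnd2 was higher by 0.02 with the deposited values and lower with median-ratio factors.

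All 3 potassium channels gated by calcium or sodium were lower in 92Q at 29 weeks, by different amounts. Kcnma1, the pore of the large-conductance channel that ends the Purkinje spike, had 25 in wild type and 23 in 92Q at 12 weeks, and 26 and 19 at 29 weeks. The 29-week ratio of −0.43 has a rounding range of −0.50 to −0.37. Kcnma1 spans chr14:23289431-24014491, minus strand. Its beta subunit Kcnmb4 had 66 and 59, then 57 and 54, so its lower value in 92Q was larger at 12 weeks, −0.16, than at 29 weeks, −0.08. Kcnn2, the small-conductance channel of Purkinje cells, had 24 and 24, then 24 and 23. Kcnt1, opened by intracellular sodium, had 58 and 61, then 62 and 59.

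None of the 7 inward rectifiers reached 1.2-fold between genotypes. Kcnj9, a G-protein-gated subunit, came closest, with 42 in both genotypes at 12 weeks and 39 and 33 at 29 weeks, a ratio of −0.23. Its relatives did not share the direction: Kcnj3 had 59 and 63, then 60 and 65, a ratio of 0.11 at 29 weeks that is the highest of the class, and Kcnj6 had 13 in both genotypes at that age. Kcnj10, the main potassium-buffering channel of astrocytes and Bergmann glia, stood at 110 and 114, then 117 and 111. Kcnj16, which joins Kcnj10 in glial channels, had 16 and 15, then 17 and 15. Kcnj11, the pore of the ATP-sensitive channel, had 31 and 30, then 28 and 25, and Kcnj12 had 39 and 40, then 34 and 33.

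The 6 K2P background channels held both of the genes that were 1.2-fold higher. Kcnk9, an acid-sensitive leak channel of granule neurons, had 14 in wild type and 15 in 92Q at 12 weeks, and 16 and 23 at 29 weeks. The 29-week 92Q score stands apart from the 3 others and is 144% of wild type, a log2 ratio of 0.50 with a rounding range of 0.43 to 0.57. Kcnk9 lies on chr15:72501089-72546340, minus strand. Kcnk3, the acid-sensitive subunit that pairs with Kcnk9, did not share that pattern, with 68 and 66 at 12 weeks and 55 and 51 at 29 weeks. Its difference lay between ages, −0.30 in wild type and −0.37 in 92Q. Kcnk1 showed a like pattern, 123 and 117 at 12 weeks and 103 and 99 at 29 weeks. Kcnk2, a mechanically and heat-sensitive channel, had 9 and 8, then 9 and 11, a ratio of 0.26 that sits exactly on the 1.2-fold threshold and whose rounding range runs from 0.13 to 0.40. Kcnk2 passed the row filter only through its 29-week 92Q value, so it had to be highest there. Kcnk12 had 21 and 20 at 29 weeks, and Kcnk10 had 9 in both genotypes.

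The 8 auxiliary subunits of potassium channels were split between 3 clear differences and 5 small ones. Kcnip1 and Kcnip4, calcium-binding proteins that attach to Kv4 pores, were both lower at 29 weeks. Kcnip1 had 52 in wild type and 44 in 92Q at 12 weeks, and 44 and 32 at 29 weeks, ratios of −0.24 and −0.45. Kcnip4 had 97 and 98, then 93 and 71, ratios of 0.01 and −0.38. The third of this family, Kcnip3, had equal scores of 54 at 29 weeks, and neither Kv4 pore reached 1.2-fold. Kcnab1, a beta subunit of Kv1 channels, had 64 and 55, then 58 and 46, ratios of −0.22 and −0.33. In Kcnab1 and Kcnip1 the 12-week 92Q value was already below wild type by more than the rounding range. The same held for the auxiliary Kcnmb4 and for others of the 1.2-fold lower genes, Cacna1g, Kcnma1 and Kcng4 among them. The other beta subunits went elsewhere, with Kcnab2 at 72 in both genotypes and Kcnab3 at 22 and 25 at 29 weeks. Kcne1l had 11 in both. Kcnip1 lies on chr11:33629339-33993152, minus strand, Kcnip4 on chr5:48389502-49524907, minus strand, and Kcnab1 on chr3:65109384-65378223, plus strand. Other protein-coding genes are annotated within the spans of Kcnip1 and Kcnip4, none with a row of its own here, and whether their reads were kept apart is not stated.

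The sodium channel genes are given as pores and beta subunits. The 3 pore subunits differed little between genotypes. Scn1a, the pore whose loss causes severe childhood epilepsy, had 30 and 31 at 12 weeks and 35 and 34 at 29 weeks. Scn2a1, the main form of unmyelinated axons, had 59 and 61, then 57 and 56, and Scn8a, the resurgent-current channel of Purkinje cells, had 46 and 49, then 49 and 50. Their 29-week ratios ran from −0.04 to 0.03. The 3 beta subunits, single-pass membrane proteins that modulate and anchor the pores, were all lower in 92Q at 29 weeks. The ratios were −0.17 to −0.22, and 26.1% of all rows were lower by any amount at that age. Scn2b had 122 in both genotypes at 12 weeks, then 115 and 102. Scn4b, whose cytoplasmic tail produces resurgent current in Purkinje cells, had 31 and 30, then 35 and 30. In none of the 3 did the difference reach 1.2-fold.

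Among the 6 pore-forming alpha1 subunits of calcium channels, 2 were lower in 92Q at 29 weeks, Cacna1g and Cacna1a, and 4 were higher. Cacna1g, the T-type channel of Purkinje cells and of the deep nuclei, had 53 in wild type and 48 in 92Q at 12 weeks, and 52 and 34 at 29 weeks. The wild-type scores differed by 1 unit between ages, while the 29-week 92Q score was 65.4% of wild type, a log2 ratio of −0.60 that is the lowest of the 63 genes. Its rounding range is −0.63 to −0.56. It is also the only channel gene in the authors' deposited table of 99 genes. Cacna1g lies on chr11:94408391-94474198, minus strand. The other T-type gene with a row, Cacna1i, had 13 and 14, then 15 and 16. Cacna1a, the P/Q-type pore mutated in episodic and spinocerebellar ataxia, had 72 and 77 at 12 weeks and 79 and 71 at 29 weeks, ratios of 0.10 and −0.15.

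The remaining alpha1 genes were higher in 92Q at both ages. Cacna1e, the R-type pore, had 21 and 25, then 22 and 24. Cacna1c, an L-type pore, had 8 and 10, then 10 and 11, and its 12-week ratio of 0.29 has a rounding range of 0.14 to 0.44. Cacna1b, the N-type pore, had 8 and 9, then 10 and 11. For Cacna1b and Cacna1c the row filter was met only at 10 or just above, so their scores are among the least precise of the set. The class median was 0.10 at 29 weeks, 0.12 without Cacna1g, and −0.15 over the 3 genes with a mean score of at least 20.

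The alpha2-delta and beta subunits, which carry alpha1 pores to the membrane, had a median ratio of −0.08 at 29 weeks. Cacna2d2, the alpha2-delta form of Purkinje cells whose loss causes ataxia in ducky mice, had 42 and 41 at 12 weeks and 45 and 37 at 29 weeks. Its ratio of −0.28 has a rounding range of −0.31 to −0.24, which crosses the 1.2-fold threshold. Cacna2d2 lies on chr9:107399612-107529343, plus strand. Cacna2d1 had 12 and 13 at 29 weeks, a ratio of 0.11. Cacnb4, the beta subunit lost in lethargic mice, had 83 and 85, then 86 and 77. Cacnb2 had 17 and 15 at 29 weeks, while Cacnb1 and Cacnb3 were equal between genotypes at that age, at 14 and 22.

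The Cacng genes encode proteins of which most act on AMPA receptors and not on calcium channels, and 3 of the 6 were lower and 3 higher at 29 weeks. Cacng2, or stargazin, whose loss in stargazer mice removes AMPA receptors from granule neurons, had 80 and 76, then 73 and 63, a ratio of −0.21. Cacng3 had 10 and 10, then 12 and 10, a ratio of −0.24 that rests on a difference of 2 units. Cacng7, a form found in Purkinje and granule neurons, had 240 and 243, then 237 and 226. Cacng4 had 22 and 24, then 22 and 26, a ratio of 0.23 that is the highest of the class. Cacng5 had 26 and 27 at 29 weeks, and Cacng8 had 10 and 11.

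Of the HCN genes, which open at negative potentials, Hcn2 was slightly higher in 92Q at both ages. Hcn2 had 85 and 90, then 89 and 97, ratios of 0.08 and 0.12.

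**Figure D2:**
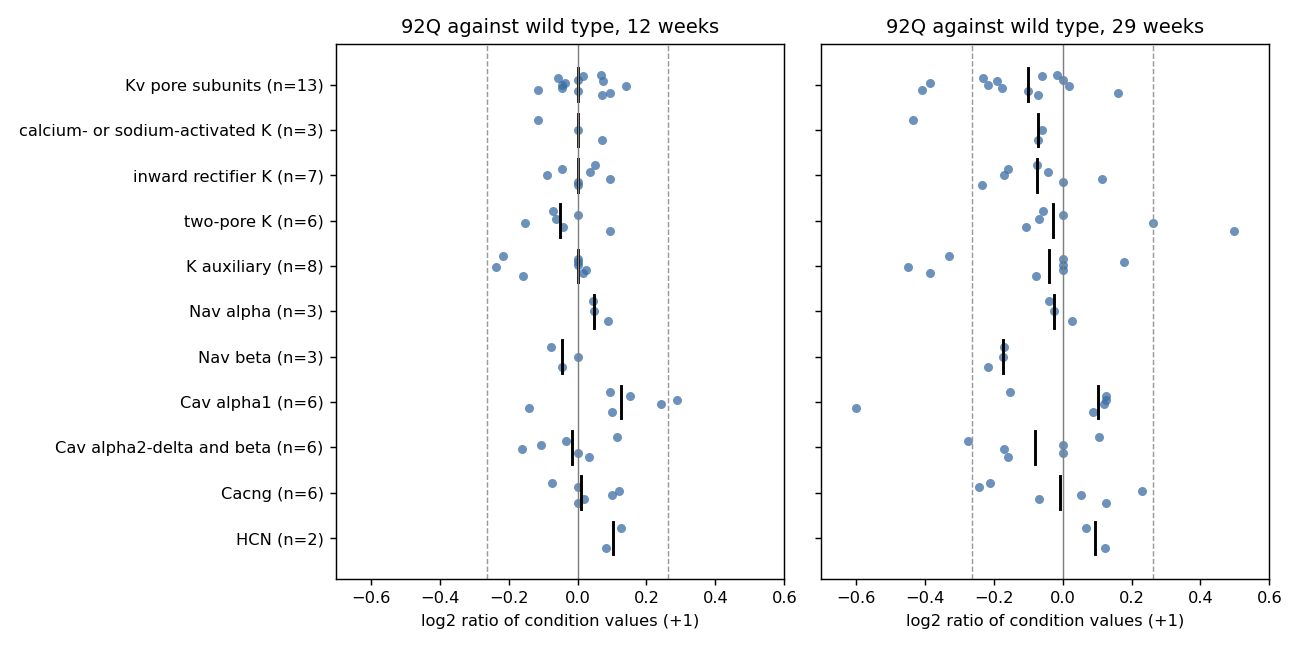
Log2 ratio of 92Q to wild type (horizontal axis) for each of the 63 channel genes, by class, at 12 weeks (left) and 29 weeks (right). Points are genes, black bars are class medians and dashed lines mark 1.2-fold; K is potassium, Nav and Cav are voltage-gated sodium and calcium channels. At 29 weeks the 3 Nav beta genes lie from −0.22 to −0.17 and Cacna1g at −0.60 stands apart from the 5 other alpha1 genes.

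Set side by side at 29 weeks, the class medians ran from −0.17 for the sodium channel beta subunits to 0.10 for the calcium channel alpha1 subunits, leaving aside the HCN genes. Between these lay the Kv pores at −0.10, the alpha2-delta and beta subunits and the inward rectifiers at −0.08, the calcium- or sodium-activated potassium channels at −0.07, the potassium channel auxiliary subunits at −0.04, the K2P and sodium pores at −0.03 and the Cacng genes at −0.01. Genes of a class were measured in the same libraries and are not replicates, so no class was tested against another. Within-class ranges were wider than the differences between most class medians: the potassium auxiliary genes ran from −0.45 to 0.18 and the K2P genes from −0.11 to 0.50. Pore-forming genes as a whole, 40 in number, had a median of −0.06 with 4 genes 1.2-fold lower, and the 23 auxiliary genes had −0.08, also with 4. At 12 weeks the order was another, from −0.05 for the K2P and sodium beta genes to 0.13 for the calcium alpha1 genes, of which 5 of 6 were higher in 92Q.

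Summed scores gave the size of these differences within each class. The Kv pores summed to 1055 in wild type and 1064 in 92Q at 12 weeks, and to 1060 and 913 at 29 weeks. The sodium pores summed to 135 and 141, then 141 and 140. The potassium auxiliary subunits gave 436 and 414, then 411 and 365. Over all 63 genes the sums were 3742 and 3727 at 12 weeks and 3657 and 3331 at 29 weeks, so the 12-week genotypes and the 29-week wild type were close together and the 29-week 92Q sum was the lowest.

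The genotype ratios at the 2 ages, which share no condition column, are plotted against each other across genes. Values were lower in 92Q at both ages for 20 genes, higher at both for 14, higher at 12 and lower at 29 weeks for 13, and lower at 12 and higher at 29 weeks for 1, Kcnk2. Equal values at an age or at both were found for 15. These counts were not made over all rows. Across the 63 genes Pearson's r was 0.59 and Spearman's rho 0.62; genes are not independent replicates, the genes share each condition's libraries, and no p is given. The 29-week ratio was below the 12-week ratio in 46 genes (73.0%) and above it in 11 (17.5%), against 36.0% and 50.8% of all rows. By 1.2-fold, the 29-week ratio was below the 12-week ratio in 6 genes (9.52%), against 2.42% of all rows, and above it in 2, against 6.50% of all rows. Among the 6 were Cacna1g at −0.46, Kcnip4 at −0.40, Kcnma1 at −0.32, Kcng4 at −0.29 and Kcnc1 at −0.26, and the 2 were Kcnk2 at 0.42 and Kcnk9 at 0.40.

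**Figure D3:**
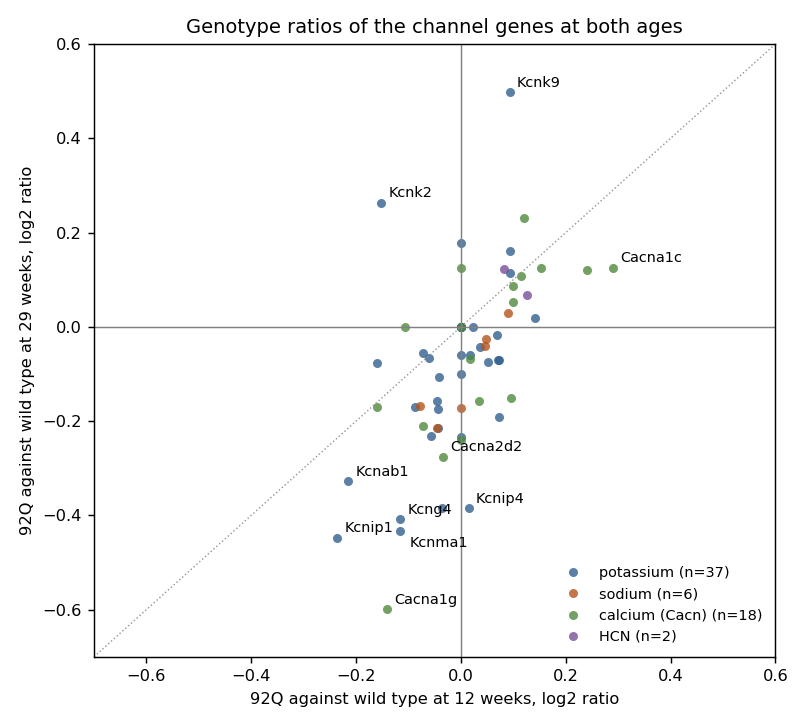
Log2 ratio of 92Q to wild type at 29 weeks (vertical axis) against the same ratio at 12 weeks (horizontal axis), 1 point per channel gene, coloured by ion. Genes 1.2-fold apart at either age are named, except 1, and the dotted line marks equal ratios. Most points, 46 of 63, lie below the dotted line, against 36.0% of all rows (not drawn), and Kcnk9 and Kcnk2 lie furthest above it.

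The age comparisons share condition columns with the genotype comparisons but not with each other. In wild type, 1 channel gene, Kcnk3, was 1.2-fold lower at 29 than at 12 weeks, against 3.81% of all rows. The 1.2-fold higher genes were 3 in number, against 2.45% of all rows; Cacna1b and Cacna1c were among them, each from a score of 8 at 12 weeks. In 92Q, 11 channel genes (17.5%) were 1.2-fold lower at 29 weeks, against 4.00% of all rows, and 6 (9.52%) were higher, against 5.53% of all rows. Besides Kcnk3 the 11 held Cacna1g, Kcnip1, Kcnma1, Kcng4, Kcnip4, Kcnj9, Cacng2 and Kcnj12. Among the 6 were Kcnk9, Kcnk2, Kcnab3, Cacna1b and Cacng8, and of these Kcnk2, Cacna1b and Cacng8 are among 6 channel genes that lie below 10 in some condition and passed the row filter through the others. The largest ratios among the 11 were −0.49 for Cacna1g, −0.46 for Kcnip4 and −0.45 for Kcnip1. The median over the channel genes was 0.02 in wild type and −0.09 in 92Q. The 29-week 92Q value was below the 3 other conditions in 29 channel genes (46.0%), against 17.1% of all rows, and above them in 13 (20.6%), against 26.2%. By class it was the lowest in 7 of 13 Kv pores, 4 of 8 potassium auxiliary genes and 2 of 3 sodium beta subunits, and the highest in 3 of 6 calcium alpha1 genes.

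Channels that textbooks tie to a cerebellar cell type were set beside the markers of that cell. Of 15 channel genes tied to Purkinje cell firing, 13 were lower at 29 weeks and 2, Scn8a among them, were higher; the median was −0.15, and 4 genes, with Cacna1g, Kcnma1 and Kcnab1 among them, were 1.2-fold lower. At 12 weeks the same 15 were 7 lower and 7 higher, with a median of 0.00. The 10 Purkinje markers had medians of −0.64 and −0.27 at the same ages, and all 10 were lower at both. The other 48 channel genes had a median of −0.03 at 29 weeks, with 25 (52.1%) lower and 15 higher and 4 of them 1.2-fold lower. Over all rows 26.1% were lower at 29 weeks, 49.5% higher and 3.12% 1.2-fold lower, so the lean was not confined to the genes listed. The 48 are not free of Purkinje cell genes: Cacna2d2, described above as the form of Purkinje cells, is among them at −0.28. Whether the lean extends beyond Purkinje cells was therefore not tested by the Purkinje firing list. That list was drawn up with earlier results of these data known, and the part of Purkinje cell number in its values was not tested.

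The 8 channel genes tied to granule neurons had a 29-week median of −0.04, beside −0.08 for the 10 granule neuron markers, whose sums were 2013 in wild type and 1869 in 92Q. Kcnip4 and Kcnk9 stand at the ends of that list, at −0.38 and 0.50. The 3 glial channels, Kcnj10, Kcnj16 and Kcnk2, had a median of −0.08, beside −0.07 for 8 astrocyte and Bergmann glia markers. Neither median stands for all members, since 2 of these channels were lower at 29 weeks and 1, Kcnk2, was higher. Of the 8 markers 5 were lower and 3 higher. Gfap stood at 95 in wild type and 235 in 92Q, and Aldoc at 1227 and 924. The 6 microglial markers were all higher at 29 weeks, with sums of 121 and 258, and the 6 choroid plexus markers gave sums of 478 and 1473 at 29 weeks and of 364 and 20 at 12 weeks. Oligodendrocyte markers were higher in 6 of 7 cases, with a median of 0.29 and sums of 3880 and 4140, and both precursor markers with a row were higher, with sums of 69 and 88. Genes listed as interneuron markers were lower in 6 of 8 cases, higher in 1 and equal in 1, with a median of −0.20 and sums of 1221 and 994. That list holds Pvalb, at 734 and 580, and Gad1, at 185 and 144. Both are also expressed in Purkinje cells, so the list does not set interneurons apart from Purkinje cells. The part of these cell types in the higher and lower channel values was not tested. Kcnj13, the choroid plexus channel that was left out, had 7 and 2, then 7 and 19.

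Genes for proteins that bind, cluster or work beside these channels also had more lower than higher values at 29 weeks, with a median of 0.00. Of 38 such partners 35 have a row, and at 29 weeks 17 (48.6%) were lower, 9 (25.7%) higher and 9 equal, beside 26.1% lower and 49.5% higher over all rows. By 1.2-fold, 1 partner was lower and none higher. Axonal anchors of sodium and potassium channels lay near 0 at 29 weeks, with Ank3 at 64 in both genotypes, Sptbn4 at 46 and 44, Nfasc at 49 and 53 and Cntnap2 at 21 and 22. Dpp10, a transmembrane partner of Kv4 pores, had 42 and 35, a ratio of −0.26, while its relative Dpp6 had 104 and 105.

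**Figure D4:**
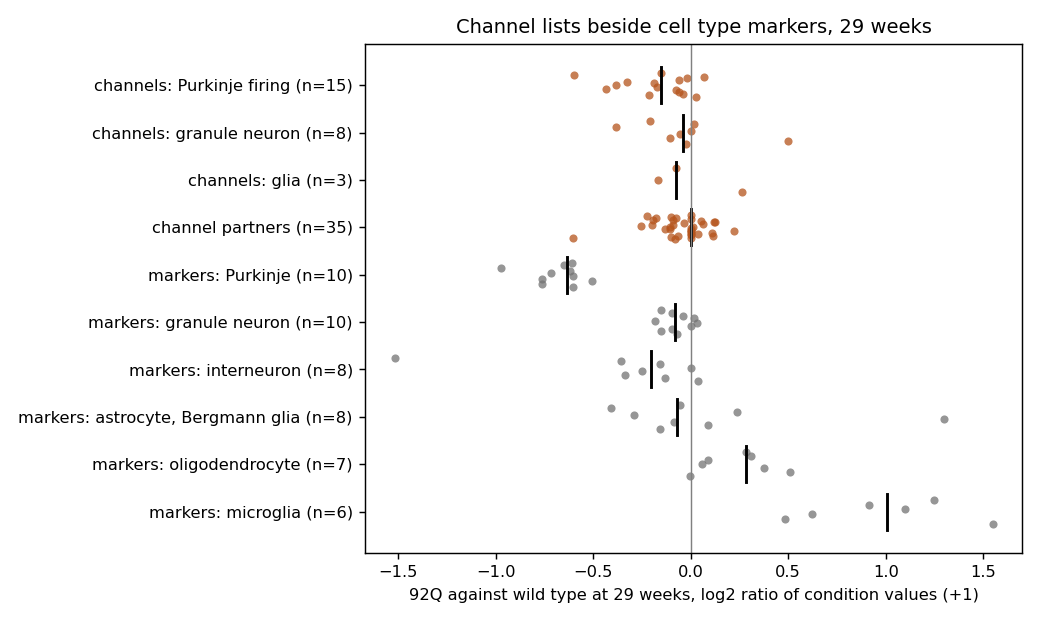
Log2 ratio of 92Q to wild type at 29 weeks (horizontal axis) for the channel lists and the channel partners (orange) and for cell type markers (grey). Points are genes and black bars are list medians. The Purkinje firing channels have a median of −0.15, the Purkinje markers one of −0.64, and the microglial markers one of 1.01.

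The 8 lower genes varied in position and length. They lie on 7 chromosomes, with Cacna1g and Kcnip1 both on chromosome 11. Their median annotated span is 199 kb, against 59.7 kb for the 55 other channel genes. Of 26 channel genes with spans over 100 kb, 5 (19.2%) were 1.2-fold lower, and of 37 shorter ones 3 (8.11%) were. Over all rows with a position the shares were 4.33% over 100 kb and 2.87% below. Kcng4 is short, so a long span is not common to all 8.

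No motif searched in the 250 bases before RefSeq starts was common to the lower genes. Windows were found for 48 of the 63 genes, 75 in all, and for 6 of the 8 lower genes. The GC box GGGCGG, on either strand, was in 38.7% of the channel windows, in 59.3% of the windows of all genes with a row in the table and in 32.7% of all windows, and among the lower genes in Kcnip1, Kcnma1, Kcnab1 and Cacna2d2. The nuclear receptor element AGGTCA was in 9.33%, 10.1% and 14.0% of these windows, and among the lower genes in Kcnip4. TATAAA was in 4.00%, 5.55% and 12.4%, and in none of the lower genes. The cyclic AMP response element TGACGTCA was in 0 of the 75 channel windows, in 2.84% of the windows of genes with a row and in 1.55% of all windows. These motifs were chosen with the values known, and a match says only that the letters are present.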

How the data were processed

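Cerebellar RNA from 4 groups (wild type and fxSCA7 92Q, 12 and 29 weeks, 3 libraries each, labelled as pools of 3 mice) was sequenced as 50-base single reads, per the labels' protocols. The submitters' processing notes name Bowtie 0.12.7, SAMtools 0.1.12a, Cuffdiff 1.3.0 and the mm10 build, with no roles given. The authors deposited 1 whole-number normalized score per gene and condition, whose unit is not stated, so depth per library is unknown and no test over libraries was possible. Of 7684 rows, 17 with a number in place of a gene name were left out. Log2 ratios were computed here with a pseudocount of 1 for rows reaching 5 in at least 1 of the conditions compared, with Python 3.11.15, numpy 2.4.6 and pandas 2.3.3, and the code was tested on simulated data. Rounding ranges move each value by 0.5. Positions are from GENCODE M21, matched for 7629 rows. Named genes are those 1.2-fold apart between genotypes, each class's highest mean and its extreme ratios, and all members of small classes; further members were added to give every class in values. The members and lists were chosen with earlier results of these data known. Values of some single genes are not reported here. Alternatives were other pseudocounts, minimum values, scalings and thresholds.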

Additional observations from a re-analysis of the deposited data

Results flagged for a closer look

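In 6 channel genes the deposited 92Q value was above wild type at 12 weeks and below it at 29 weeks, each time by more than rounding to whole numbers allows. The difference between the ages was not tested, since each condition has a single value. The log2 genotype ratio at 29 weeks minus that at 12 weeks was −0.26 for Kcnc1, −0.25 for Cacna1a, −0.19 for Cacnb4, −0.14 for Kcnt1, −0.13 for Kcnj10 and −0.09 for Cacng7. Cacna1a and Cacnb4 encode the pore and a beta subunit of P/Q-type calcium channels. In the opposite sense, no channel gene went from below to above wild type by more than rounding. Neither count was made over all rows, so they do not set the channel genes apart from other genes.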

How the results depend on the processing

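Of 276 alternatives over 34 results, 241 stayed within the rounding range of a median or within 1.5 times a count, and 35 moved. That range comes from the rounding of the members' values to whole numbers and is not a spread between libraries. Of the medians, 3 changed sign: calcium alpha1 at 29 weeks and wild type between ages (both with a mean of at least 20), and alpha2-delta and beta at 12 weeks, from −0.0170 to 0.0167 with equal upper quartiles. The count of 8 genes lower at 29 weeks was 1 at 1.5-fold, 4 among pore subunits and 4 without the Purkinje firing list; the last of these sets, and that of genes at 10 or more in every condition, were chosen after seeing the data. The 2 genes higher at 29 weeks became 1 with a pseudocount of 5, median-ratio factors, quantile normalization or 10 in every condition, and 0 with a mean of at least 20 or at 1.5-fold. The 1 gene higher at 12 weeks became 2 with equal upper quartiles and 0 with a pseudocount of 5, a mean of at least 20, quantile normalization, 1.5-fold or 10 in every condition. In wild type between ages, the 3 higher became 1 (pseudocount 5, quantile) or 0 (mean of at least 20, 1.5-fold, 10 in every condition), the 1 lower became 0 (quantile, 1.5-fold), and the median of 0.02 became −0.0169 with a mean of at least 20 and 0.0653 with quantile normalization. In 92Q between ages, the 6 higher became 1 (mean of at least 20, 1.5-fold) or 2 (10 in every condition) and the 11 lower became 0 at 1.5-fold and 7 among pore subunits. Class medians at 29 weeks moved to −0.15 for calcium alpha1 and −0.16 for alpha2-delta and beta genes with a mean of at least 20, to −0.0525 for sodium pores with median-ratio factors, and to −0.20 with median-ratio factors and −0.19 with quantile normalization for sodium beta subunits. At 12 weeks the potassium auxiliary median moved to 0.0325 with equal upper quartiles. Fewer genes enter under the higher minimum. The median over all rows moved as well, from 0.00 to −0.0251 at 29 weeks with median-ratio factors. At 12 weeks it moved from 0.00 to 0.0324 with equal upper quartiles. For the moves other than those under the higher minimum the cause was not tested. The 29-week split of 38 lower and 17 higher was 41 and 16 with quantile normalization, where all rows split into 33.8% lower and 49.4% higher. It was unmoved with equal upper quartiles. The 12-week split of 22 and 28 was 21 and 41 with equal upper quartiles, where 32.5% of all rows were lower and 67.2% higher. Cacna1g stayed between −0.63 and −0.55 over pseudocounts and scalings. Leaving out a library was not possible, because each condition has 1 value. No paired analysis was possible because the columns carry no replicate numbers and no result comes from a test.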
